A study of Mus musculus with 22 samples.

Results

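The interferon-stimulated and guanylate-binding protein (*Gbp*) genes described here are 41 named genes that mammalian cells switch on in response to interferon. They were taken by gene symbol from the table of 52636 GENCODE M15 genes measured by RNA-seq in fully-grown, germinal-vesicle (GV) stage mouse oocytes, a rule that uses no measured value, although the list was drawn up with earlier results of these data known. All 41 symbols were found in the table. The question addressed was whether oocytes that process double-stranded RNA (dsRNA) poorly contain more transcripts of the interferon response.

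All mice were of strain C57BL/6, and each of the 22 samples came from a pool of oocytes. The single-end run, with no age in the labels, comprised 3 wild-type samples (Dicer-WT/WT), 4 samples of genotype Dicer ΔMT/ΔMT, 3 of Dicer SOM/SOM and 1 of Dicer ΔMT/WT. The ΔMT allele lacks the MTC retrotransposon promoter that drives the short, oocyte-specific Dicer isoform, and the SOM allele encodes HA-tagged full-length Dicer without introns 2 to 6, so that the short isoform is not made. The SOM line descends from 1 embryonic stem cell clone, through an animal that was crossed on the C57BL/6 background. In the paired-end run, 4 heterozygous controls carried 1 mutant allele of each gene (genotype Mili-DAH/WT with Dicer-SOM/WT). The 2 RNAi mutants combined Mili-DAH/WT with Dicer-SOM/SOM, the single piRNA mutant combined Mili-DAH/DAH with Dicer-SOM/WT, and the 4 double mutants were homozygous for both (Mili-DAH/DAH with Dicer-SOM/SOM). DAH is a catalytically dead form of MILI, the slicing protein of the piRNA pathway. Every paired-end mouse, controls included, therefore carried at least 1 DAH and 1 SOM allele. Double mutants were 11, 11, 35 and 40 weeks old, controls 10, 17, 36 and 38, RNAi mutants 13 and 17, and the piRNA mutant 16.

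In most cells, cytoplasmic dsRNA is bound by sensors of the RIG-I family, which signal through MAVS to *Irf3* and switch on interferon genes. Secreted interferon binds its receptor, and the kinases *Jak1* and *Tyk2* then activate transcription factors, among them *Stat2*, which enters the nucleus with *Irf9* and acts at a promoter element called ISRE. Interferon gamma acts at a second element, GAS, and is a strong inducer of the *Gbp* GTPases. Mouse oocytes are unusual in that Dicer cuts long dsRNA into siRNAs, and long dsRNA has been used to silence genes in them.

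Several well-known members of the response were at or near 0 in every genotype, whereas others, such as *Stat2* and *Ifitm3*, were readily detected. *Isg15*, the ubiquitin-like modifier, *Ifit2* and *Ifit3*, which hold back foreign RNA, and *Gbp6* had at most 3 counts in each of the 22 samples. In the single-end run, 17 of the 41 genes were too low to be tested, and the highest value among these was 0.459 CPM (counts scaled to the TMM-adjusted library size), for *Ifi35*. In the paired-end run, 13 were too low, with a highest value of 0.311 CPM for *Tap1*, a peptide transporter. The 11 genes too low in both runs were *Irf7*, *Ifit2*, *Ifit3*, *Isg15*, *Usp18*, *Xaf1*, *Ifi35*, *Gbp2*, *Gbp6*, *Gbp11* and the chemokine gene *Cxcl10*.

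Summed over these 11 genes, the level was 0.373 ± 0.069 CPM (SD, n = 3) in wild type, 0.508 ± 0.260 (SD, n = 4) in Dicer ΔMT/ΔMT and 0.174 ± 0.151 (SD, n = 3) in Dicer SOM/SOM. It was 0.309 ± 0.058 CPM (SD, n = 4) in heterozygous controls, 0.257 ± 0.058 (SD, n = 2) in RNAi mutants and 0.281 ± 0.081 (SD, n = 4) in double mutants. No sample held more than 53 counts over all 11 genes. The samples of Dicer SOM/SOM, at 0 to 0.269 CPM, were below those of wild type, at 0.312 to 0.448 CPM. The value of 0 came from SOM/SOM replicate 3, the library with 6468380 counts. There 3 counts correspond to 0.464 CPM of the total count, before TMM scaling. In that sample a sum at the wild-type level would rest on a few counts only, and its 0 lowers the group mean. Dicer ΔMT/ΔMT overlapped wild type, and both replicated paired-end mutants overlapped their controls. Total counts per sample were 6468380 to 90713013 (single-end) and 22928936 to 43540806 (paired-end). At these depths 3 counts in a sample corresponded to 0.0331 to 0.464 CPM before TMM scaling, so that lower levels were not detectable. These floors cover counting error only, because reads amplified by PCR without molecular identifiers are not independent molecules. The interferon genes themselves were as low. None of 20 interferon genes was testable in either run, 16 had at most 3 counts in every single-end sample and 15 in every paired-end sample, and the highest count of any was 26, for *Ifna12*.

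**Figure D1:**
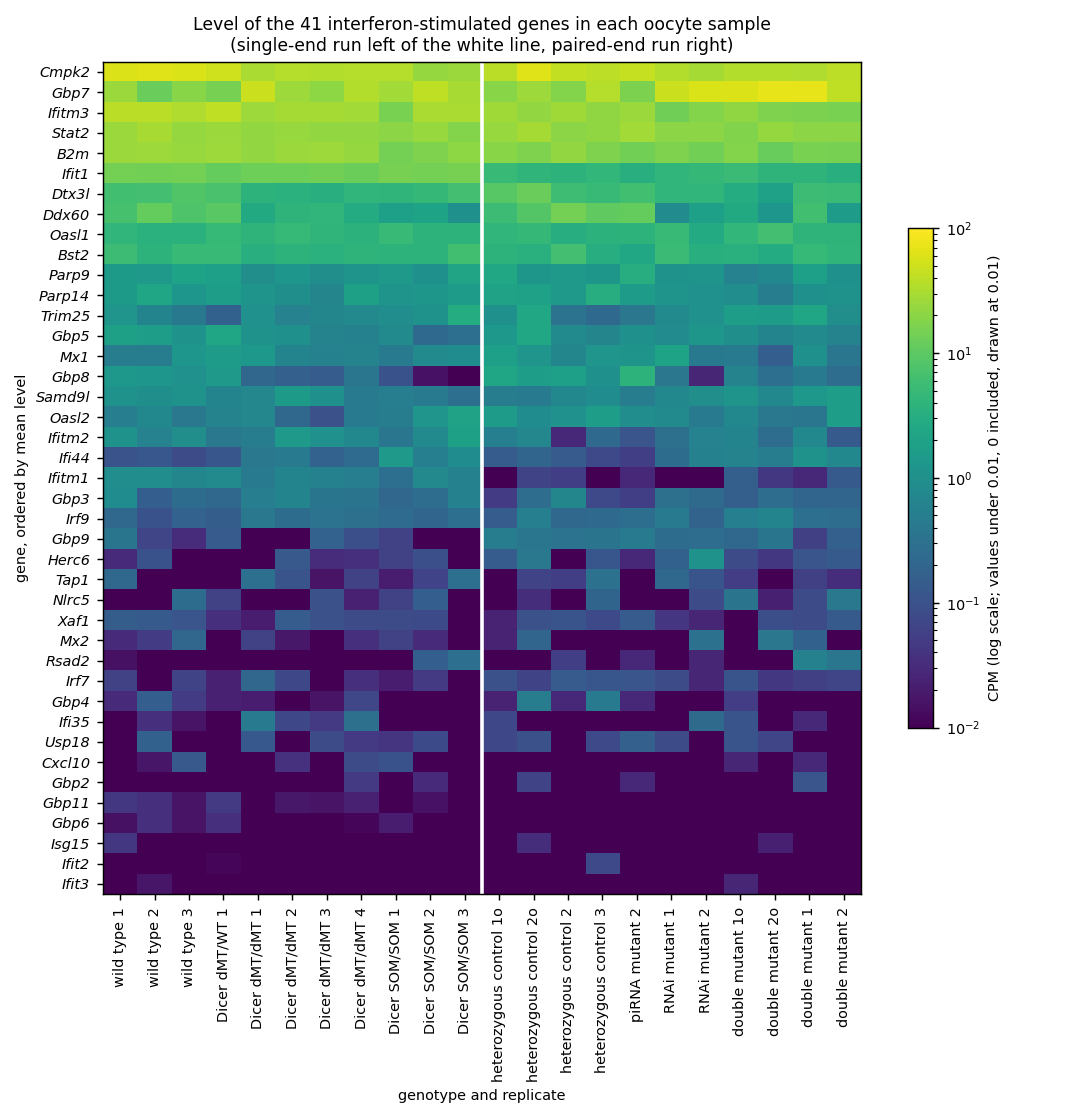
Level of each of the 41 genes (rows, ordered by mean level) in each of the 22 samples (columns, single-end run left of the white line), as CPM on a log colour scale. The ΔMT allele is written dMT on the axis. *Cmpk2* and *Gbp7* lead at up to 63.0 and 71.6 CPM, whereas *Isg15*, *Ifit2* and *Ifit3* at the bottom are near 0 in every column.

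The 20 genes that are described one by one below were called changed in at least 1 comparison or reached a mean of 1 CPM in at least 1 group. The other 21 were called in none of the comparisons, and 10 of them could be tested in at least 1 run. The highest value of a single sample among these 21 was 1.09 CPM (40 counts) of *Herc6*, a ligase of the *Isg15* system, in RNAi mutant replicate 2.

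Several members were expressed at moderate levels. Per kilobase of exon, which allows genes to be compared with each other, *Ifitm3* was highest in wild type at 54.5 CPM per kb, followed by *B2m* at 29.1, *Cmpk2* at 19.2, *Bst2* at 6.07, *Stat2* at 5.95 and *Ifit1* at 5.42. In heterozygous controls the corresponding values were 36.2, 22.1, 14.4, 5.25, 5.38 and 1.64 CPM per kb. *Ifitm3* encodes a membrane protein that blocks virus entry, *B2m* the light chain of MHC class I, *Cmpk2* a mitochondrial nucleotide kinase, and *Bst2* tetherin, which holds budding virus at the cell surface. *Gbp7*, *Dtx3l*, *Oasl1* and *Ddx60* followed at means of 3.34, 2.61, 1.74 and 1.34 CPM per kb in wild type.

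The level of *Ifit1* cannot be separated from that of its copies. Single-end samples had 11.2 to 15.4 CPM and paired-end samples 3.22 to 5.42 CPM, with no call in any comparison. Of the 50-base stretches of its transcripts, 7.13% also occur in *Ifit1bl1* or *Ifit1bl2*, and of the 75-base stretches 5.19%, 50 and 75 being the read lengths of the runs. *Ifit1bl2* was measured at 238 to 285 CPM in the single-end and 270 to 336 CPM in the paired-end samples. Reads that map to several places were divided between them when the table was made, so how much of the *Ifit1* value came from these copies was not tested.

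The promoters of the members are shown for those at the extremes of the data: *Isg15* and *Ifit3*, which are strongly inducible elsewhere and near 0 here, *Ddx60* and *Cmpk2*, which fell in mutants, and *Gbp7* and *Ifi44*, which rose in some. Each sequence runs 5′ to 3′ from 160 bases before the RefSeq start to 20 bases from it (GRCm38.p6). Capitals mark the core of an ISRE, taken as GAAA and GAAA parted by any 2 bases on either strand, and GAS, taken as TTCNNNGAA.
Isg15, chr4:156200799-156200978, minus strand: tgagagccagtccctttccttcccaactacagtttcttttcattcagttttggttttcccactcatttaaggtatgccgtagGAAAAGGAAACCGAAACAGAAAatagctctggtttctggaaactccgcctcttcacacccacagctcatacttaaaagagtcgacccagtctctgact
Ifit3, chr19:34583369-34583548, plus strand: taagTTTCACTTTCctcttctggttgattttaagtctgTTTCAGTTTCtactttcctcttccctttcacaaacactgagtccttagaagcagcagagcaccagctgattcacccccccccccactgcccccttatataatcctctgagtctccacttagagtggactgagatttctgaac
Ddx60, chr8:61927927-61928106, plus strand: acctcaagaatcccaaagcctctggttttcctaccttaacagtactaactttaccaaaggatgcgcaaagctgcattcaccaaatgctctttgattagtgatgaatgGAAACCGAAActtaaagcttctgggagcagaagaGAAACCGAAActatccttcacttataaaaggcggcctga
Gbp7, chr3:142530176-142530355, plus strand: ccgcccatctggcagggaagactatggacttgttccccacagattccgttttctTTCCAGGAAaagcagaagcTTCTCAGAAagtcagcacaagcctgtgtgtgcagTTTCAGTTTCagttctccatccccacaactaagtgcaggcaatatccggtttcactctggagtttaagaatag
Cmpk2, chr12:26469055-26469234, plus strand: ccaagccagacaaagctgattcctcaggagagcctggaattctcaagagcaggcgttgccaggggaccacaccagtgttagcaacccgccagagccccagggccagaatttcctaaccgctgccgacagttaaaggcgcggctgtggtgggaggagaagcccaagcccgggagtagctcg
Ifi44, chr3:151749891-151750070, minus strand: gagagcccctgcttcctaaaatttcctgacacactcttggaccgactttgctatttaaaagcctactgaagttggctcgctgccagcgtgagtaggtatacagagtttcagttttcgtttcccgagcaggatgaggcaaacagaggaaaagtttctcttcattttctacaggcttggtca

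Of the 41 genes, 30 were in the promoter table. In the window of 250 bases before to 50 after the start, the ISRE core was present in 15 of these 30 (50%) and in 3.99% of all 27025 genes of the table, and GAS was present in 6 of 30 (20%) and in 9.55% of all genes. *Isg15* held 3 overlapping cores, 78 to 57 bases before the start, and *Ddx60* held 2, the nearer of which begins 19 bases before the start. Among the 10 members called changed in any comparison, 8 were in the table and 5 held the ISRE core, namely *Ifitm3*, *Ddx60*, *Gbp5*, *Gbp7* and *B2m*. Genes that fell and *Gbp7*, which rose, were both among them, whereas *Cmpk2* and *Ifi44* held neither motif. A match describes the letters of the window and does not show that a factor is bound.

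Across the comparisons, 23 calls were made on 10 of the members. 8 of the 10 were only lower in mutants and 2, *Ifi44* and *Gbp7*, only higher. In Dicer ΔMT/ΔMT against wild type, 1 of 24 tested members was higher and 4 were lower, beside 8.06% and 7.30% of all 23151 tested genes. The members' median log2 fold change was −0.21, and that of all genes 0.01. In Dicer SOM/SOM against wild type, 1 of 24 was higher and 5 were lower, beside 14.5% and 14.2% of all genes, with medians of −0.28 and 0.02.

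In RNAi mutants against heterozygous controls, 1 of 28 tested members was higher and 2 were lower, beside 7.07% and 3.64% of 20989 tested genes. The members' median log2 fold change was −0.11, or −0.07 with the 2 genes that had at most 3 counts throughout 1 group set to their bound. That of all genes was −0.02. Such a bound can lie above 0 for a gene fitted below it. With bounds the median of the 2 tested antigen presentation genes went from −0.20 to 0.44. The median with bounds is therefore not a safer estimate. In double mutants against the same controls, 2 were higher and 5 lower, beside 12.3% and 8.84% of all genes, with medians of −0.34 and −0.0012. Between Dicer SOM/SOM and Dicer ΔMT/ΔMT, 1 member was higher and 1 lower in the former, beside 4.03% and 3.32% of all genes. Between double and RNAi mutants, edgeR called none of the 28, and DESeq2 none, while 1 of the 28 had an unadjusted p under 0.05. The corresponding shares of all genes called were 0.310% higher and 0.00476% lower. Comparisons within a run share their control or mutant samples.

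**Figure D2:**
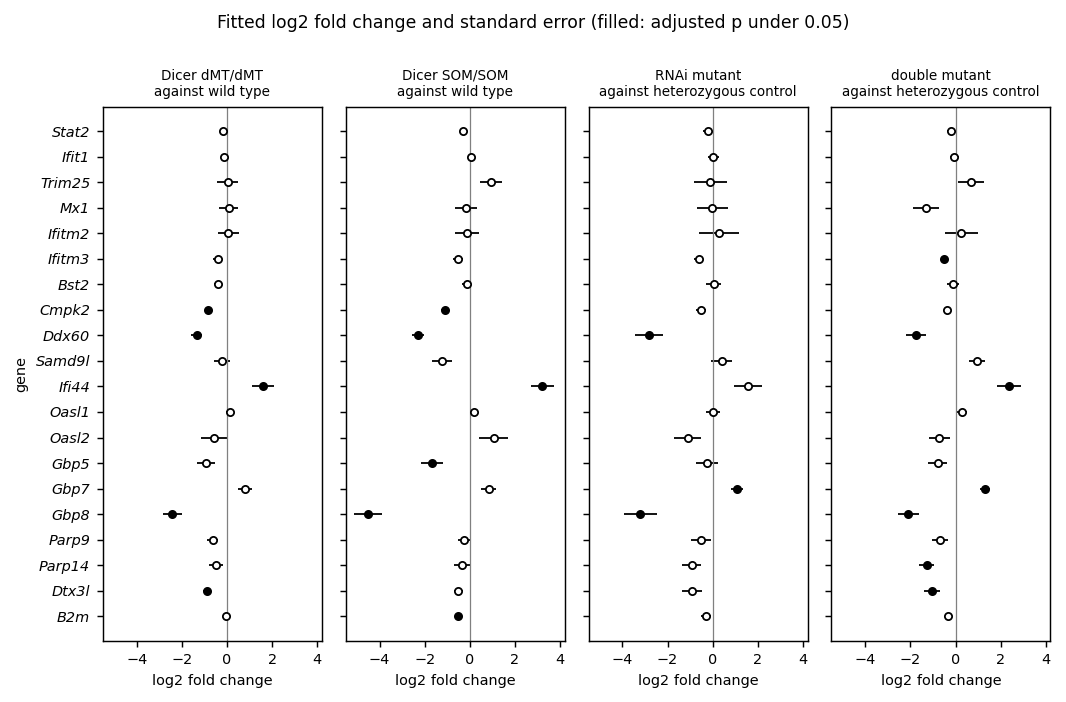
Fitted log2 fold change (x axis) with its standard error (bars) for the 20 genes described individually (y axis), in both mutants of the single-end run against wild type and in both multi-sample mutants of the paired-end run against heterozygous controls. Filled points have an adjusted p under 0.05, and of these *Ddx60* and *Gbp8* lie left of 0 in all 4 panels, whereas *Ifi44* and *Gbp7* lie right of 0 where filled.

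*Ddx60* (ENSMUSG00000037921.15, chromosome 8, 61928089 to 62038244, plus strand), a helicase that acts with RIG-I-like sensors of viral RNA, fell in both single-end groups homozygous for a *Dicer* mutation. It was measured at 6.96, 11.4 and 7.97 CPM in wild type, at 2.71, 4.04, 4.25 and 2.86 CPM in Dicer ΔMT/ΔMT, and at 1.78, 2.11 and 1.02 CPM in Dicer SOM/SOM. The 3 genotypes did not overlap, and the Dicer ΔMT/WT sample, at 9.41 CPM, lay in the wild-type range. Against wild type, the log2 fold change came to −1.34 in Dicer ΔMT/ΔMT (adjusted p = 0.00327, SE, the standard error, 0.23) and −2.30 in Dicer SOM/SOM (adjusted p = 0.000147, SE 0.28). Between both mutants the difference of −0.95 did not pass (adjusted p = 0.0541, SE 0.27). That difference passed with DESeq2, at −0.96 (adjusted p = 0.00723), and without wild type replicate 2, at −0.97 (adjusted p = 0.0437).

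In the paired-end run, *Ddx60* was at 5.51, 8.47, 14.4 and 10.48 CPM in heterozygous controls, 0.865 and 1.79 CPM in RNAi mutants and 2.64, 1.26, 6.11 and 1.63 CPM in double mutants. Both RNAi mutants were below all controls, whereas double mutant replicate 1, at 6.11 CPM, was above the lowest control. The piRNA mutant, heterozygous for SOM, was at 11.3 CPM, within the control range. *Ddx60* was lower by a log2 fold change of −2.84 in RNAi mutants (adjusted p = 0.00925, SE 0.63) and −1.74 in double mutants (adjusted p = 0.0122, SE 0.45). Without RNAi mutant replicate 1 the first was −2.45 and no longer passed (adjusted p = 0.126). In the younger animals alone, the double mutants gave −1.67 (adjusted p = 0.0842).

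*Gbp8* (ENSMUSG00000034438.16, chromosome 5, 105014153 to 105139540, minus strand), one of the *Gbp* copies on chromosome 5, fell further. Wild-type samples had 1.35, 1.26 and 1.05 CPM, Dicer ΔMT/ΔMT 0.209, 0.166, 0.146 and 0.367 CPM, and Dicer SOM/SOM 0.104, 0.0157 and 0 CPM. The last 3 values rest on 5, 1 and 0 counts, against 64 to 91 counts in wild type. All ΔMT/ΔMT and SOM/SOM samples were thus below all wild-type samples, and the ΔMT/WT sample was at 1.41 CPM. Against wild type, the log2 fold change of *Gbp8* came to −2.42 in Dicer ΔMT/ΔMT (adjusted p = 0.00339, SE 0.42) and −4.52 in Dicer SOM/SOM (adjusted p = 0.000351, SE 0.63). With so few counts the size of the latter depends on single reads, and it ranged from −6.24 to −3.80 when samples were left out in turn.

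Heterozygous controls had 2.29, 1.77, 1.83 and 1.01 CPM of *Gbp8*, RNAi mutants 0.389 and 0.0271 CPM, and double mutants 0.620, 0.294, 0.430 and 0.271 CPM. No RNAi or double mutant sample reached the lowest control, while the piRNA mutant, at 3.79 CPM and untested, was above all controls. The fitted log2 difference was −3.20 in RNAi mutants (adjusted p = 0.0104, SE 0.72) and −2.09 in double mutants (adjusted p = 0.00679, SE 0.48). The value in RNAi mutants was −5.83 without replicate 1 and −2.14 without replicate 2 (adjusted p = 0.112). In the younger animals alone, neither passed, at −2.94 (adjusted p = 0.0685) and −1.999 (adjusted p = 0.138).

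**Figure D3:**
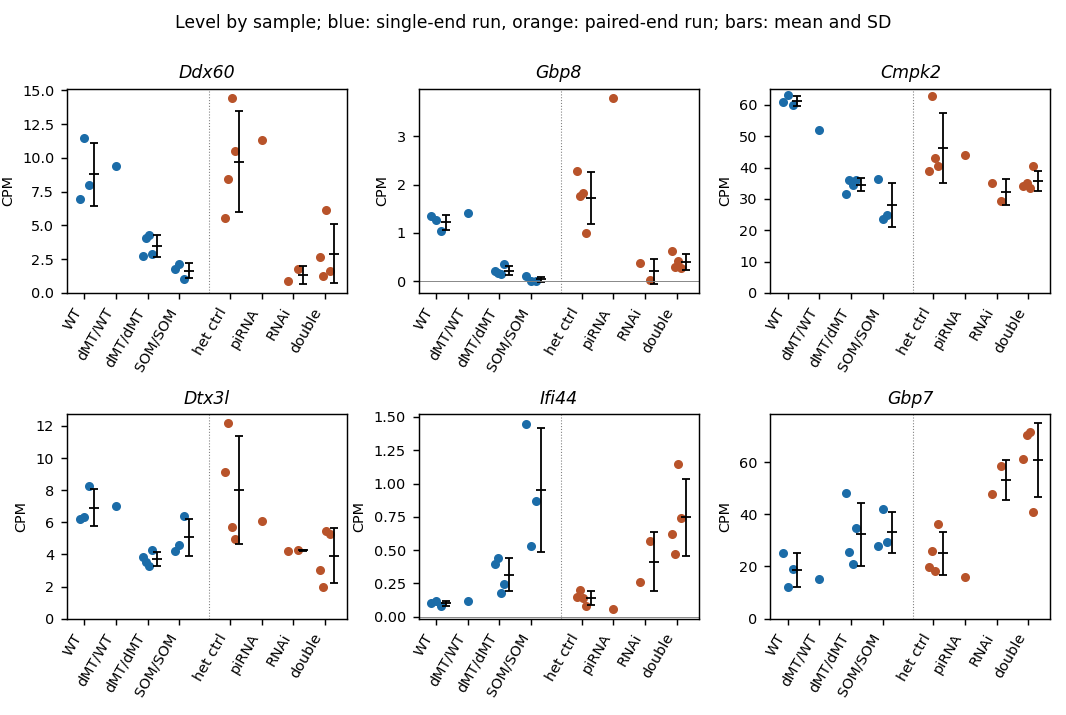
CPM (y axis, linear from 0) of *Ddx60*, *Gbp8*, *Cmpk2*, *Dtx3l*, *Ifi44* and *Gbp7* in each sample (points) by genotype (x axis), with the mean and SD of groups of 2 or more samples (black). The means of the first 4 genes are lower in the homozygous SOM and ΔMT groups than in their controls, with an overlap between double mutants and controls for *Ddx60*, *Cmpk2* and *Dtx3l* and between Dicer SOM/SOM and wild type for *Dtx3l*. The means of the last 2 are higher, with an overlap for *Gbp7* between Dicer ΔMT/ΔMT (written dMT/dMT on the axis) and wild type.

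Because copies of *Gbp* genes share reads, they were also summed per chromosome before testing. Of the 50-base stretches of *Gbp8* transcripts, 18.1% occur in another gene, mainly *Gbp11*, *Gbp10* and *Gbp9*, and its exons overlap those of *Gbp4* and *Gbp9* on the same strand. The sum of the 6 copies on chromosome 5 was 1.55 ± 0.32 CPM (SD, n = 3) in wild type, 0.339 ± 0.168 (SD, n = 4) in Dicer ΔMT/ΔMT and 0.0795 ± 0.1115 (SD, n = 3) in Dicer SOM/SOM. It was 2.36 ± 0.44 CPM (SD, n = 4) in heterozygous controls, 0.495 ± 0.278 (SD, n = 2) in RNAi mutants and 0.6248 ± 0.215 (SD, n = 4) in double mutants. The sum, which does not depend on how reads were divided between these copies, was lower in all 4 mutant groups without overlap. In wild type and heterozygous controls most of the sum was *Gbp8* itself, so its fall does not describe the other copies. The log2 fold changes of the sum were −2.15 (adjusted p = 0.0105), −3.90 (adjusted p = 0.00121), −2.31 (adjusted p = 0.00436) and −1.91 (adjusted p = 0.000962) in ΔMT/ΔMT, SOM/SOM, RNAi and double mutants. *Gbp9* itself, at a mean of 0.385 CPM in heterozygous controls and 0.201 CPM in double mutants, and *Gbp4* were not called.

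On chromosome 3, *Gbp7* was higher in paired-end mutants and its neighbour *Gbp5* lower in Dicer SOM/SOM. *Gbp7* (ENSMUSG00000040253.15, chromosome 3, 142530342 to 142550149, plus strand) was the most abundant *Gbp* gene. It was measured at 19.6, 26.0, 18.3 and 36.2 CPM in heterozygous controls, 47.7 and 58.7 CPM in RNAi mutants and 61.0, 70.2, 71.6 and 40.9 CPM in double mutants. All mutant samples were above all controls, and the piRNA mutant, at 16.1 CPM, was below them. *Gbp7* was higher by 1.09 on the log2 scale in RNAi mutants (adjusted p = 0.0167, SE 0.27) and 1.29 in double mutants (adjusted p = 0.00110, SE 0.23). The call in RNAi mutants was lost without either replicate, at 1.23 without replicate 1 and 0.94 without replicate 2, and in the younger animals alone neither passed, at 0.96 (adjusted p = 0.149) and 1.06 (adjusted p = 0.0919).

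In the single-end run, *Gbp7* was at 25.1, 12.0 and 19.2 CPM in wild type, 47.99, 25.5, 20.9 and 34.7 CPM in Dicer ΔMT/ΔMT, and the samples of Dicer SOM/SOM had 27.8, 42.0 and 29.5 CPM. SOM/SOM samples were above the wild-type range, but the log2 fold changes of 0.78 (adjusted p = 0.113, SE 0.31) and 0.83 (adjusted p = 0.0819, SE 0.33) did not pass. *Gbp7* exons overlap those of *Gm43802* on the same strand, which was at 0.612 to 7.05 CPM. The sum over the 5 copies on chromosome 3 was called higher in RNAi mutants, by 1.03 (adjusted p = 0.0177), and in double mutants, by 1.21 (adjusted p = 0.00117).

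*Gbp5* (ENSMUSG00000105504.4, chromosome 3, 142496900 to 142522344, plus strand), which promotes inflammasome assembly and is the neighbour of *Gbp7*, was at 1.86, 1.71 and 1.13 CPM in wild type and 0.828, 0.236 and 0.290 CPM in Dicer SOM/SOM. The groups did not overlap, and *Gbp5* fell by 1.68 on the log2 scale (adjusted p = 0.0218, SE 0.47). The call was lost without wild type replicate 1 or 2 or SOM/SOM replicate 2, with values between −1.62 and −1.21, and the fold change was −2.66 without SOM/SOM replicate 1. Elsewhere *Gbp5* was not called, with values of −0.92 in Dicer ΔMT/ΔMT (adjusted p = 0.143), −0.25 in RNAi mutants (adjusted p = 0.833) and −0.80 in double mutants (adjusted p = 0.194).

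*Cmpk2* (ENSMUSG00000020638.8, chromosome 12, 26469204 to 26479837, plus strand) was the most abundant member by CPM in wild type and in heterozygous controls. It was at 61.0, 63.0 and 59.9 CPM in wild type, 31.6, 36.1, 34.5 and 36.1 CPM in Dicer ΔMT/ΔMT, and the samples of Dicer SOM/SOM had 36.2, 23.5 and 24.8 CPM. The mutants lay below the wild-type range, with means of 56.4% and 45.9% of wild type. The log2 fold changes were −0.83 (adjusted p = 0.00211, SE 0.13) and −1.11 (adjusted p = 0.000278, SE 0.15). The ΔMT/WT sample was between, at 51.9 CPM. In the paired-end run the values were 38.8, 62.7, 43.0 and 40.3 CPM in controls, 35.0 and 29.3 CPM in RNAi mutants and 34.2, 35.0, 33.5 and 40.5 CPM in double mutants. There, neither the difference of −0.52 in RNAi mutants (adjusted p = 0.134, SE 0.21) nor that of −0.37 in double mutants (adjusted p = 0.134, SE 0.16) passed. Its neighbour *Rsad2* (viperin), which is induced together with it in immune cells, was untested in the single-end run and had at most 20 counts in any paired-end sample.

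*Dtx3l*, *Parp9* and *Parp14* form a group of ADP-ribosylation genes, in which *Dtx3l* is a ubiquitin ligase bound to *Parp9*. *Dtx3l* (ENSMUSG00000049502.16, chromosome 16, 35931861 to 35939151, minus strand) was at 6.19, 6.31 and 8.24 CPM in wild type and 3.86, 3.54, 3.27 and 4.26 CPM in Dicer ΔMT/ΔMT. All mutant samples were lower, by 0.89 on the log2 scale (adjusted p = 0.00543, SE 0.17). In Dicer SOM/SOM, at 4.18, 4.60 and 6.38 CPM, the difference of −0.51 did not pass (adjusted p = 0.0693, SE 0.19). That difference passed with DESeq2, at −0.53 (adjusted p = 0.0421), and without SOM/SOM replicate 3, at −0.65 (adjusted p = 0.0212). In the paired-end run, controls were at 9.15, 12.2, 5.72 and 4.97 CPM and double mutants at 3.02, 1.96, 5.45 and 5.25 CPM, so that the groups overlapped. The difference of −1.04 passed narrowly (adjusted p = 0.0443, SE 0.34). In the younger animals alone it was 0.0073 (adjusted p = 0.992), and the call was lost without either of the older controls, either of the older double mutants or either of the RNAi mutants, at −1.02 to −0.76.

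*Parp14* (ENSMUSG00000034422.14, chromosome 16, 35832874 to 35871544, minus strand) was at 2.04, 1.97, 1.415 and 3.14 CPM in controls and 0.917, 0.497, 1.03 and 1.08 CPM in double mutants. The groups did not overlap, and *Parp14* fell by 1.28 on the log2 scale (adjusted p = 0.0126, SE 0.33), which did not pass in the younger animals alone, at −1.09 (adjusted p = 0.193). *Parp9* shares 7.71% of its 50-base stretches with *Dtx3l*. It was called in no comparison of the full fits, with log2 fold changes between −0.69 and 0.37. In double mutants *Parp9* passed as lower without double mutant replicate 1, at −1.08 (adjusted p = 0.0467).

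*Ifi44* (ENSMUSG00000028037.13, chromosome 3, 151730922 to 151749960, minus strand), an interferon-induced cytoplasmic protein, was the only member called higher in the single-end run, from a very low base. It was at 0.104, 0.121 and 0.0818 CPM in wild type, 0.396, 0.442, 0.178 and 0.248 CPM in Dicer ΔMT/ΔMT, and the samples of Dicer SOM/SOM had 1.45, 0.534 and 0.871 CPM. These correspond to 5 to 7 counts in wild type, 11 to 24 in ΔMT/ΔMT and 70, 34 and 6 in SOM/SOM. The 3 genotypes did not overlap. *Ifi44* rose by 3.20 on the log2 scale in Dicer SOM/SOM (adjusted p = 0.000913, SE 0.51) and 1.60 in Dicer ΔMT/ΔMT (adjusted p = 0.0479, SE 0.48). Between both mutants it was 1.61 (adjusted p = 0.0462, SE 0.43). The ΔMT/ΔMT call was lost without any 1 of wild type replicates 1, 2 and 3 or ΔMT/ΔMT replicates 1, 2 and 4, at 1.39 to 1.73, and the call between mutants without any 1 of 9 of the 10 samples, at 1.06 to 1.82.

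In the paired-end run, *Ifi44* was at 0.148, 0.200, 0.139 and 0.0776 CPM in controls, 0.259 and 0.570 CPM in RNAi mutants and 0.620, 0.474, 1.15 and 0.745 CPM in double mutants. The mutants of both genotypes lay above all controls, and the piRNA mutant, at 0.0557 CPM, below them. The log2 fold change was 2.36 in double mutants (adjusted p = 0.00547, SE 0.53) and 1.55 in RNAi mutants, where it did not pass (adjusted p = 0.143, SE 0.62). Even the highest sample of this gene had 70 counts, or 1.45 CPM.

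*B2m* (ENSMUSG00000060802.8, chromosome 2, 122147686 to 122153083, plus strand) was at 25.2, 25.9 and 24.0 CPM in wild type, 22.5, 24.8, 25.9 and 23.2 CPM in Dicer ΔMT/ΔMT, and the samples of Dicer SOM/SOM had 14.5, 17.0 and 21.2 CPM. SOM/SOM was below both other groups, by 0.54 on the log2 scale against wild type (adjusted p = 0.0112, SE 0.13) and by 0.48 against ΔMT/ΔMT (adjusted p = 0.0415, SE 0.12). The first call was lost in a fit of the compared groups only (adjusted p = 0.0579), and the second was lost there too and without any 1 of 9 of the 10 samples, at −0.51 to −0.36. In RNAi and double mutants the log2 fold changes were −0.30 (adjusted p = 0.429) and −0.32 (adjusted p = 0.201).

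*Ifitm3* (ENSMUSG00000025492.6, chromosome 7, 141009586 to 141010770, minus strand) was at 26.7, 22.5, 27.3 and 21.7 CPM in heterozygous controls and 21.4, 16.7, 16.1 and 15.4 CPM in double mutants. The highest double mutant was just below the lowest control, and *Ifitm3* fell by 0.50 on the log2 scale (adjusted p = 0.0398, SE 0.16). The call was lost when any 1 of 7 of the 10 samples of the replicated groups was left out, at −0.49 to −0.43, namely double mutant replicates 2o, 1 and 2, both RNAi mutants and control replicates 1o and 2. In the other mutants the differences did not pass in the full fits, at −0.41 in Dicer ΔMT/ΔMT (adjusted p = 0.194), −0.52 in Dicer SOM/SOM (adjusted p = 0.0979) and −0.63 in RNAi mutants (adjusted p = 0.0636). Some alternatives called them lower. With DESeq2 SOM/SOM (adjusted p = 0.0478) and RNAi mutants (adjusted p = 0.0177) passed. ΔMT/ΔMT passed with the compared groups only (adjusted p = 0.00643) and without SOM/SOM replicate 1 (adjusted p = 0.0103). SOM/SOM also passed without its replicate 2 (adjusted p = 0.0433).

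The other expressed members were called in no comparison of the full fits. *Stat2*, the transcription factor of the interferon response, stayed between 17.6 and 29.8 CPM in all 22 samples, with log2 fold changes between −0.31 and 0.0049. Its partner *Irf9* was at 0.103 to 0.632 CPM. *Bst2* was at 2.53 to 6.27 CPM and *Oasl1*, a member of the oligoadenylate synthetase family that lacks the enzyme activity, at 2.82 to 6.44 CPM. *Samd9l*, an antiviral factor, had a mean of 0.416 CPM in Dicer SOM/SOM against 1.06 CPM in wild type (log2 fold change −1.24, adjusted p = 0.0520), and of 1.25 CPM in double mutants against 0.650 CPM in controls (0.94, adjusted p = 0.0854). *Trim25*, the ubiquitin ligase that acts on RIG-I, had a mean of 1.69 CPM in Dicer SOM/SOM against 0.760 CPM in wild type (0.93, adjusted p = 0.196), and of 1.62 CPM in double mutants against 1.02 CPM in controls (0.67, adjusted p = 0.459). Its controls ranged from 0.233 to 2.5 CPM, and in double mutants it passed in the younger animals alone, at 2.49 (adjusted p = 0.0332), and without control replicate 2o, at 1.59 (adjusted p = 0.0415). *Mx1*, an antiviral GTPase, was at 2.08 and 0.407 CPM in the 2 RNAi mutants, and *Ifitm2* and *Oasl2* were at no more than 1.89 and 2.03 CPM in any sample. In double mutants, *Mx1* passed as lower with the replicate block, at −1.98 (adjusted p = 0.0204), and without double mutant replicate 1, at −1.95 (adjusted p = 0.0385). *Oasl2* passed as lower there without double mutant replicate 2, at −1.36 (adjusted p = 0.0377). *Samd9l* passed in some alternative fits, lower in Dicer SOM/SOM and higher in double mutants. *Stat2* passed as lower in Dicer SOM/SOM without SOM/SOM replicate 2, at −0.45 (adjusted p = 0.0316).

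The rest of the interferon pathway was followed with a second list of 93 genes (interferons, receptors, signalling, sensors, dsRNA effectors and further induced genes). In Dicer ΔMT/ΔMT, 5 of 53 tested were higher and 6 lower, with a median log2 fold change of 0.04. In Dicer SOM/SOM, 11 of 53 were higher and 9 lower, with a median of 0.11. In RNAi mutants 5 of 55 were higher and 2 lower, and in double mutants 11 of 55 were higher and 6 lower, with medians of −0.02 and 0.14. Between Dicer SOM/SOM and Dicer ΔMT/ΔMT, 2 were higher and 2 lower, and between double and RNAi mutants none was called, with 4 of 55 at an unadjusted p under 0.05. These shares stand beside the same percentages of all genes given above.

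Of the further induced genes, 2 of 17 tested were higher and 1 lower in Dicer ΔMT/ΔMT, while SOM/SOM oocytes had 7 higher and 2 lower. Among 19 tested in the paired-end run, 4 were higher and 0 lower in RNAi mutants and 6 and 1 in double mutants. Of 10 tested sensors and adaptors, 1 was higher and 3 lower in each of Dicer ΔMT/ΔMT, Dicer SOM/SOM and double mutants, and 2 were lower in RNAi mutants. Of all tested genes, 8.06% were higher and 7.30% lower in ΔMT/ΔMT and 14.5% and 14.2% in SOM/SOM. The shares were 7.07% and 3.64% in RNAi mutants and 12.3% and 8.84% in double mutants. *Ddx58*, which encodes RIG-I, was lower in all 4 mutant groups against their controls, with means of 26.5 CPM in wild type, 15.2 CPM in Dicer ΔMT/ΔMT and, for Dicer SOM/SOM, 12.9 CPM. Its paired-end means were 23.8 CPM in controls, 11.5 CPM in RNAi mutants and 12.5 CPM in double mutants. *Traf3*, an adaptor of the sensors, was likewise lower in all 4, and *Tlr3*, which senses dsRNA in endosomes, was lower in all except the RNAi mutants. *Mb21d1*, the DNA sensor cGAS, was higher in Dicer ΔMT/ΔMT, at 137 against 102 CPM, and not called in Dicer SOM/SOM, whose level was lower than in ΔMT/ΔMT. Of the receptors, *Ifnar1* was higher in double mutants, at 68.9 against 48.9 CPM. Of the dsRNA effectors, *Oas1b* and *Oas1f* were lower in both single-end mutants and in double mutants.

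*Oas3*, which makes the second messenger of RNase L from dsRNA, rose in the 4 replicated mutant groups. It was at 12.4 and 13.4 CPM in wild type replicates 1 and 3 and lower, with 609 counts, in replicate 2. It was at 25.6, 18.9, 18.5 and 18.4 CPM in Dicer ΔMT/ΔMT, and the samples of Dicer SOM/SOM had 39.1, 44.6 and 52.8 CPM. Controls of the paired-end run were at 12.0, 10.0, 9.46 and 10.6 CPM, the piRNA mutant at 10.1 CPM, RNAi mutants at 40.9 and 38.3 CPM and double mutants at 73.6, 56.6, 74.0 and 62.0 CPM. None of these 4 groups overlapped its controls, and the piRNA mutant lay in the control range. The log2 fold changes were 0.75 in ΔMT/ΔMT (adjusted p = 0.00817, SE 0.15), 1.90 in SOM/SOM (adjusted p = 1.59e-05, SE 0.17), 1.91 in RNAi mutants (adjusted p = 4.60e-06, SE 0.16) and 2.66 in double mutants (adjusted p = 3.68e-08, SE 0.15). SOM/SOM was also above ΔMT/ΔMT, by 1.15 (adjusted p = 0.00133, SE 0.15).

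*Isg20*, an interferon-induced exonuclease of RNA, was at 1.31, 1.17 and 0.572 CPM in wild type, 1.67, 1.03, 1.55 and 0.934 CPM in Dicer ΔMT/ΔMT, and the samples of Dicer SOM/SOM had 8.76, 6.93 and 11.2 CPM. It rose in SOM/SOM by 3.10 against wild type (adjusted p = 6.54e-05, SE 0.34) and by 2.77 against ΔMT/ΔMT (adjusted p = 0.000381, SE 0.30). The paired-end levels of *Isg20* were 0.320, 0.367, 2.16 and 0.776 CPM in controls, 1.82 and 2.71 CPM in RNAi mutants and 3.34, 1.47, 2.47 and 2.61 CPM in double mutants, and neither the difference of 1.32 (adjusted p = 0.201, SE 0.60) nor that of 1.43 (adjusted p = 0.0625, SE 0.51) passed. *Irgm2*, a GTPase of the immunity-related family, was at 0.935, 1.20, 0.805 and 0.932 CPM in heterozygous controls, 3.16 and 4.59 CPM in RNAi mutants and 10.0, 7.72, 6.37 and 5.45 CPM in double mutants. It rose by 2.01 (adjusted p = 0.000491, SE 0.29) and 2.93 (adjusted p = 3.27e-06, SE 0.26), whereas in the single-end run, with 2.99, 1.17 and 1.28 CPM in wild type and 1.57 to 3.28 CPM in the homozygous mutants, it was not called.

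*Tor3a* rose in the same 4 groups, by 1.07 (adjusted p = 0.0436, SE 0.32) in ΔMT/ΔMT, 2.12 (adjusted p = 0.000951, SE 0.34) in SOM/SOM, 1.995 (adjusted p = 0.0137, SE 0.47) in RNAi and 2.61 (adjusted p = 0.000466, SE 0.41) in double mutants. Its means were 1.02, 2.15 and 4.38 CPM in wild type, ΔMT/ΔMT and SOM/SOM and 1.29, 5.14 and 7.80 CPM in controls, RNAi and double mutants. *Phf11b* rose in SOM/SOM by 1.25 (adjusted p = 0.0255, SE 0.36) and in double mutants by 1.77 (adjusted p = 0.00921, SE 0.43). Its means were 1.14, 1.38 and 2.90 CPM in wild type, ΔMT/ΔMT and SOM/SOM and 0.940, 2.48 and 3.18 CPM in controls, RNAi and double mutants, and the differences of 0.27 in ΔMT/ΔMT (adjusted p = 0.628) and 1.43 in RNAi mutants (adjusted p = 0.0917) did not pass. *Epsti1*, an interferon-induced gene of stroma and immune cells, moved the other way, at 52.5, 57.9 and 53.3 CPM in wild type, 24.3, 27.2, 30.7 and 29.3 CPM in ΔMT/ΔMT and 12.7, 19.8 and 19.4 CPM in SOM/SOM. It fell by 0.97 (adjusted p = 0.00129, SE 0.15) and 1.68 (adjusted p = 3.34e-05, SE 0.17) in these mutants. Paired-end *Epsti1* levels were 49.6, 34.2, 42.1 and 36.7 CPM in controls, 25.2 and 27.7 CPM in RNAi mutants and 17.4, 14.5, 26.3 and 28.0 CPM in double mutants. All mutants of both genotypes were below the controls, and it fell by 0.92 (adjusted p = 0.00588, SE 0.21) in double mutants, while the difference of −0.62 in RNAi mutants did not pass (adjusted p = 0.161, SE 0.26).

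**Figure D4:**
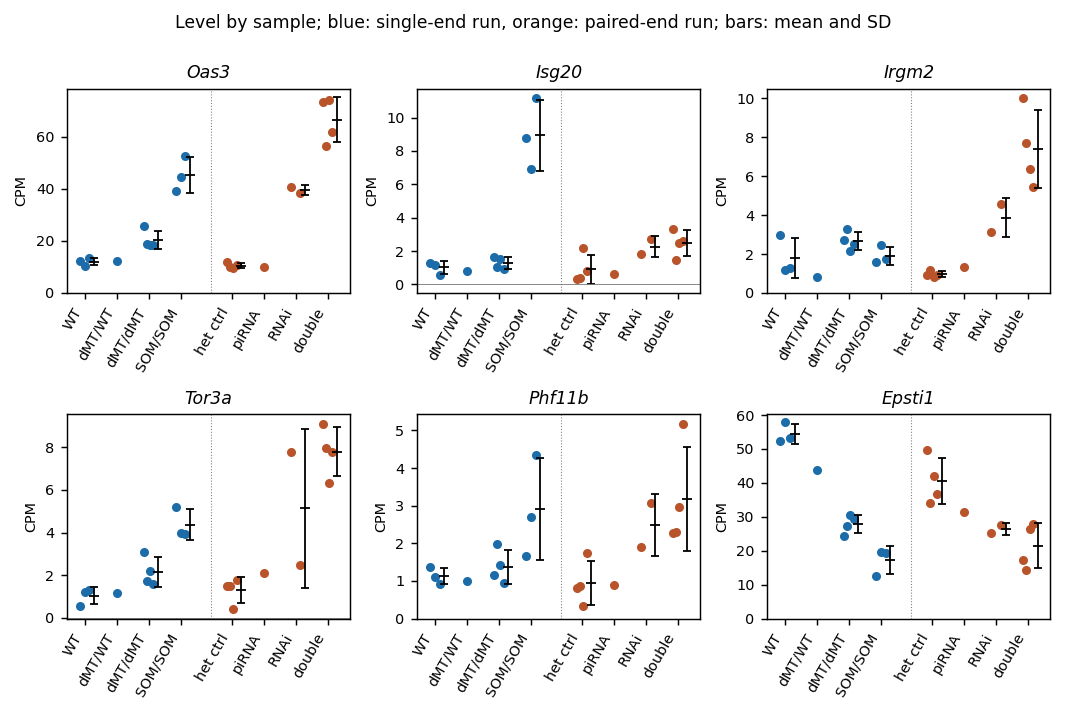
CPM (y axis, linear from 0) of *Oas3*, *Isg20*, *Irgm2*, *Tor3a*, *Phf11b* and *Epsti1* in each sample (points) by genotype (x axis), with mean and SD in black. *Oas3* climbs from at most 13.4 CPM in wild type to 39.1 to 52.8 CPM in Dicer SOM/SOM and from at most 12.0 CPM in heterozygous controls to 56.6 to 74.0 CPM in double mutants, whereas *Epsti1* is lower in these groups.

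Oocyte markers such as *Gdf9* and *Bmp15* summed to between 11350 and 14630 CPM in every sample, and *Dicer1* lay between 41.9 and 62.1 CPM in all samples homozygous for SOM, 428 and 536 CPM in Dicer ΔMT/ΔMT and 502 CPM or more in all others. In bulk samples, fewer cells of a type and less RNA per cell cannot be told apart. The 11 granulosa and cumulus markers summed to 34.3 to 43.6 CPM in wild type, 31.0 to 85.0 in ΔMT/ΔMT, 34.3 to 74.0 in SOM/SOM, 47.98 to 70.7 in controls, 45.5 to 49.6 in RNAi mutants and 37.05 to 73.1 in double mutants, and the erythroid markers to at most 0.267 CPM. Of these, *Has2* was lower in ΔMT/ΔMT, SOM/SOM and RNAi mutants, and *Cyp19a1* lower and *Fshr* higher in SOM/SOM. The stromal marker *Pdgfra* was lower in SOM/SOM, the oocyte marker *Mos* was lower in the 4 replicated mutant groups, and *Nobox* was higher in SOM/SOM. The 9 leukocyte markers summed to 52.6 to 57.6 CPM in wild type, 48.2 to 60.9 in ΔMT/ΔMT, 44.8 to 62.3 in SOM/SOM, 52.4 to 70.2 in controls, 49.0 to 49.98 in RNAi mutants and 42.5 to 70.7 in double mutants, most of it *Ms4a1*, while *Adgre1* had at most 3 counts in every sample outside wild type and double mutants. Within that list *Cd68* was higher in SOM/SOM (2.56, adjusted p = 0.00653), RNAi mutants (1.75, adjusted p = 0.000427) and double mutants (2.16, adjusted p = 1.08e-05), *Itgam* in SOM/SOM and *Ptprc*, at a mean of 0.210 CPM against 0, in double mutants, while *Ms4a1* was lower in SOM/SOM. For *Ptprc*, 2 of the 4 double mutants had at most 3 counts, and the highest had 14. The part of other cell types in the changes above was not tested.

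*Gm42418*, a gene model over ribosomal RNA sequence, parted the paired-end libraries into 5 with 294 to 557 CPM (double mutant replicates 2o and 2, control replicates 2o and 2, and the piRNA mutant) and 6 with 4086 to 5503 CPM. A term for these sets, added after the values were seen, left the number of members called higher and lower unchanged in the 3 paired-end comparisons. In the single-end run, SOM/SOM replicates 1 and 3 stood apart with 12880 and 17430 CPM against 4798 to 7627 CPM elsewhere, and replicate 3 was the library with the fewest counts. Without replicate 3, the log2 fold changes in Dicer SOM/SOM against wild type were −4.41 for *Gbp8*, 3.24 for *Ifi44*, −1.59 for *Gbp5* and −0.67 for *B2m*, all with an adjusted p under 0.05.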

How the data were processed

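RNA-seq was analysed in 22 pooled samples of mouse GV oocytes. The authors aligned reads of 50 bases (single-end) or 75 bases (paired-end) to GRCm38 with STAR 2.5.3a, with multimapping reads kept, and then obtained counts per GENCODE M15 gene with featureCounts, without strand and as fractions between places and genes. The deposited values are therefore expected counts, and they were rounded here to whole numbers. Reads of near-identical copies, and of overlapping or antisense genes, cannot be fully told apart.

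Each run was fitted separately with edgeR 4.0.16 in R 4.3.3 (TMM scaling, filterByExpr with its minimum count of 10 and minimum total of 15, quasi-likelihood F test) on all replicated groups of the run, with Benjamini-Hochberg adjustment over all tested genes and a threshold of 0.05. Single samples entered no test. CPM were computed with TMM-scaled library sizes. Ages in the labels differ between the paired-end samples of a group, which places them in different animals, except for the double mutants of 11 weeks. For those and for the single-end run, the labels do not say which samples came from separate animals. The p-values therefore measure only the spread between these samples. Replicates differed by 12.11 to 97.98 times the counting error over 25 pairs, so none was a repeat deposit of another.

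The members and gene lists were chosen with earlier results of these data known. Genes named with values are members called in any comparison or reaching a mean of 1 CPM in a group. Of the pathway list, called genes may be named, and the 6 with the largest log2 fold changes at 1 CPM or more are described with values in both runs. "Younger animals" are those of at most 30 weeks. On simulated data with 100 changed genes of each size, the test recovered 73 at a log2 change of 1 and 98 at 2 for Dicer ΔMT/ΔMT against wild type (23151 genes), and 40 and 86 for RNAi mutants against controls (20989 genes). The changed genes were drawn only from those with a mean of at least 1 CPM. These rates therefore do not cover the members below that level. Alternatives were DESeq2 1.42.0, no filter, the compared groups only, a replicate block, an age term, younger animals only, summed *Gbp* copies, a threshold of 0.1 and each sample left out in turn. A term for *Gm42418* was chosen after seeing the data. Promoter sequences are from RefSeq (GRCm38.p6).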

Additional observations from a re-analysis of the deposited data

Results flagged for a closer look

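Of 60 groups of 4 samples examined for a sample far from the others, 2 held one (3.333%), where chance gives about 1 in 20. *Mx1* was at 1.335 CPM in Dicer ΔMT/ΔMT replicate 1, against 0.582 to 0.627 CPM in the other replicates. *Parp9* was at 2.509 CPM in heterozygous control replicate 1o, against 1.32 to 1.443 CPM in the other controls.

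Among the samples that entered no comparison, 2 values lay above all controls and stood out. *Mx1* was at 1.635 CPM in the single Dicer ΔMT/WT sample, against 0.476 to 1.259 CPM in wild type. *Gbp8*, which fell in the homozygous SOM and ΔMT groups, was at 3.787 CPM in the single piRNA mutant, against 1.009 to 2.288 CPM in heterozygous controls. Neither difference has a replicate, and neither was tested. Over the 20 genes described individually, the Dicer ΔMT/WT sample was above all wild-type samples for 6 and below all for 5, and the piRNA mutant was above all controls for 2 and below all for 5. With so few controls, a single sample often falls outside their range by chance. The share over all genes was not counted, so these numbers describe the samples only.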

How the results depend on the processing

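Of 23 calls on members, 8 held under every alternative run, namely those of *Cmpk2*, *Ddx60* and *Gbp8* in both single-end mutants against wild type, of *Dtx3l* in Dicer ΔMT/ΔMT and of *Ifi44* in Dicer SOM/SOM, and 14 held without each single sample. Single-end calls faced 14 or 15 alternatives and paired-end calls 17 or 18, so the runs are not alike in this. The calls of *Ddx60*, *Gbp7* and *Gbp8* in double mutants were lost only in the younger animals. In Dicer ΔMT/ΔMT, the 1 member called higher became 0 without a filter and with the replicate block, and 0 to 1 without single samples. In Dicer SOM/SOM against wild type, higher calls went from 1 to 2 at an adjusted p under 0.1, and lower calls from 5 to 9 at that threshold and 8 with DESeq2. Against Dicer ΔMT/ΔMT, the 1 higher call became 2 with DESeq2, 0 without a filter, with the compared groups only and with the replicate block, and 0 to 1 without single samples. The 1 lower call became 3 at an adjusted p under 0.1, 3 with DESeq2, 0 with the compared groups only and with the replicate block, and 0 to 2 without single samples. In RNAi mutants, the younger animals alone gave 0 higher and 1 lower call, and leaving out single samples 0 to 1 and 1 to 2. In double mutants, higher calls went from 2 to 1 with the replicate block, where *Ifi44*, at 2.04 (adjusted p = 0.0786), no longer passed, as did neither *Parp14*, at −1.15 (adjusted p = 0.0747), nor *Ifitm3*, at −0.49 (adjusted p = 0.0836), and lower calls from 5 to 3 with the compared groups only, to 0 in the younger animals and to 3 to 6 without single samples. *Dtx3l* in double mutants changed sign in the younger animals, to 0.0073. The younger-animal fit has fewer samples, and the cause of the other changes was not tested. Replicate numbers were not taken to pair the samples, since the correlation of same-numbered deviations passed 0.1 in 0 of 9 single-end and 2 of 6 paired-end pairs, and samples correlated best with their own number in 8 of 18 and 5 of 12 cases. The calls of *Ifi44* rest on 70 counts or fewer per sample, so its size is imprecise.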
